A study of Mus musculus with 6 samples.

Results

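Long exonic circRNAs are circular RNAs made only of exons whose spliced length is 1000 nt or more. They were taken from the study's annotated list of detected circRNAs, of which the first 1734 rows were held, as the rows typed exonic with a length of 1000 nt or more, and each was joined to its array probe by the probe identifier. Of the 1341 exonic circRNAs in these rows, 341 were long and 1000 were shorter. The array held 14236 circRNA probes, of which 13420 passed a filter on background and were compared. The rows held run in order of the probe identifier, so the 341 stand for the first identifiers and not for every long exonic circRNA on the array.

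CircRNAs were measured in microglia of the cerebral cortex, picked out with an antibody to CD11b on magnetic beads, from male mice of 6 months. Wild-type (WT) C57BL/6J mice were set beside APP/PS1 mice, a transgenic model of Alzheimer's disease. These carry mutant human PS1 and an APP695 of joined mouse and human sequence that bears the Swedish mutation. The promoter that drives the transgenes is not given in the sources used here. Each genotype had 3 samples from different donors, and each sample had 1 array. The RNA was digested with RNase R, which removes linear RNA, and the signal of a probe is its Cy3 brightness on the log2 scale after quantile normalization. All 6 arrays lay on 1 slide, the WT samples in row 1 and the APP/PS1 samples in row 2. The row of the slide and the genotype therefore cannot be told apart. Fewer cells of a type and less RNA per cell cannot be told apart in such bulk samples either.

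A circRNA forms when a splice donor is joined backwards to an acceptor upstream of it, which closes the exons between them into a ring without free ends. Rings of several exons hold the sequence of those exons with the introns between them removed, whereas a ring of a single exon has no intron between its ends. The array reads the back-splice junction, so neighbouring circRNAs of a gene are told apart by their junctions and not by their length.

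The circRNAs are made from the primary transcripts of their host genes, and the start regions of 3 host genes are shown for the members on which the results turn. Ulk2 hosts the member with the largest rise, Clip1 the longest member that passed the thresholds used here, and Paxip1 the brightest member. The sequences are RefSeq promoters on GRCm38.p6 from 250 bases before to 50 bases after the gene's start, printed 5' to 3' on the strand of the gene, with every CG dinucleotide in capitals. They lie at chr11:61855043-61855342, chr5:123684312-123684611 and chr5:27791501-27791800, each on the minus strand.
Ulk2: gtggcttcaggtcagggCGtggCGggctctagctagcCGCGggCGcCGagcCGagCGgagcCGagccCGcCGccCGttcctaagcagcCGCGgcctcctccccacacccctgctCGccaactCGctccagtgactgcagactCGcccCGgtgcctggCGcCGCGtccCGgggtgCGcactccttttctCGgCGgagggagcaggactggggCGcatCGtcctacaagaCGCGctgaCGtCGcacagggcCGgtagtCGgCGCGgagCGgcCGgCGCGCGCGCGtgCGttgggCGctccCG
Clip1: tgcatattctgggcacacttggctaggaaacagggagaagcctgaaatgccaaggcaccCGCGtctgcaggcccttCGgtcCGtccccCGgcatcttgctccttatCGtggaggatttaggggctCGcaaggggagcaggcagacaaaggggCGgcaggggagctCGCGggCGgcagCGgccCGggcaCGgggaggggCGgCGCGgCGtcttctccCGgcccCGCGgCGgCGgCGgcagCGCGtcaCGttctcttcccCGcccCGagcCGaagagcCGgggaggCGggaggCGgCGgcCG
Paxip1: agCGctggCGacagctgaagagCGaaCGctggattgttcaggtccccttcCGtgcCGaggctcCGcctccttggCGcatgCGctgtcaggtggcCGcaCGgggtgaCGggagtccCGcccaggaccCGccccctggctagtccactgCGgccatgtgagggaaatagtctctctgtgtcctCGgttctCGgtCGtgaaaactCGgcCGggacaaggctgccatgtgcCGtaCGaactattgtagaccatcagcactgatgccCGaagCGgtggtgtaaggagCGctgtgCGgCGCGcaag
These windows held 45, 35 and 28 CG dinucleotides, and none held TATAAA on either strand. A promoter was found for 260 of the 325 host gene symbols of the long exonic circRNAs and for 741 of the 925 of the shorter ones. The median window held 24.5 CG dinucleotides for the long and 23 for the shorter ones, against 7 over all 27025 genes with a promoter. GGGCGG, searched on both strands, was present in 70.8% of the windows of the long, 66.7% of those of the shorter and 35.9% of all. TATAAA was present in 4.23%, 5.13% and 14.2%. The host genes of long and of shorter exonic circRNAs thus had promoters of like composition, and both held more CG than the promoters of all genes. These letters describe the windows and mark no bound site.

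The long exonic circRNAs had a median length of 1453 nt and the shorter ones 463 nt. There were 180 members under 1500 nt, 79 from 1500 to under 2000 nt, 59 from 2000 to under 3000 nt and 23 of 3000 nt or more. The longest came from Ttn, which encodes the giant muscle protein titin, with 11415 nt. The 341 members came from 326 host genes on 21 chromosomes, with 171 on the plus and 170 on the minus strand. Chromosome 2 held 33 members, chromosome 4 held 28 and chromosome 5 held 27, and the X chromosome held 19 of the long against 26 of the 1000 shorter ones. The Y chromosome held 2 members, from Usp9y and Kdm5d, named here after their values were seen, and no shorter one.

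The genomic span, the distance between the ends of the ring on the chromosome with introns included, was longer for the long circRNAs, with a median of 24363 bp against 8417 bp. Its quartiles were 14543 and 42590 bp for the long ones. Per nucleotide of exon the order was the other way, with a median of 15.7 bp of span per nt for the long and 17.0 for the shorter ones. Long rings thus covered more of the chromosome about in proportion to the exons they held. A span over 100 kb was found for 21 long circRNAs (6.16%) and 20 shorter ones (2.0%), and a span under 5 kb for 24 (7.04%) and 351 (35.1%). The widest member came from Dmd, the dystrophin gene, named here after its values were seen, with 1711 nt of exon over 577029 bp. Within the long circRNAs length said little about span, with a Spearman correlation of 0.19 over the 341, against 0.54 over all 1341 exonic circRNAs. Both are descriptions across circRNAs, some of which share a host gene.

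**Figure D1:**
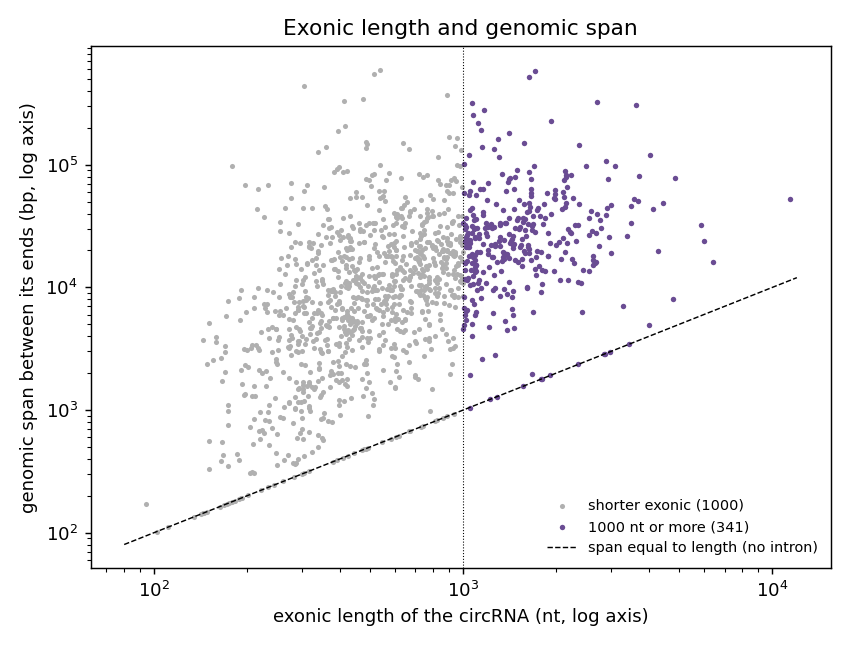
Exonic length in nt against genomic span in bp, both on log axes, for the 341 long (purple) and 1000 shorter (grey) exonic circRNAs. The dashed line marks a span equal to the length, on which 12 long and 47 shorter circRNAs lie, and the dotted line marks 1000 nt.

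Relative to the host gene, the long circRNAs took more of the transcription unit and began closer to its start. The median long circRNA spanned 26.8% of its host gene and began after 37.7% of it, against 11.7% and 47.8% for the shorter ones. A RefSeq gene was matched for 340 long and 997 shorter circRNAs, and 340 and 992 lay inside it. Of those inside, 28.8% of the long and 22.6% of the shorter ones began in the first 25% of the host gene. A ring that takes more of a gene has less room to begin late, so these measures are not independent of the span. The list named circBase as the source of 19 long circRNAs (5.57%), against 151 (15.1%) of the shorter ones. Whether circBase also holds the others was not tested.

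The signal of the long exonic circRNAs was close to that of the shorter ones. Their median mean signal over the 6 arrays was 5.33 (log2), with quartiles of 4.07 and 6.99, against 5.19, with quartiles of 4.16 and 6.83, for the shorter ones and 5.67 over all 13420. Probes differ in affinity, so this compares distributions over probes and not the amounts of single circRNAs. The long median stood above the shorter one by 0.12, 0.11 and 0.13 on the arrays WT 1, WT 2 and WT 3 and by 0.047, 0.10 and 0.12 on APP/PS1 1, APP/PS1 2 and APP/PS1 3. It was thus higher on each of the 6 arrays, by 0.11 on average, which is small beside the width of either distribution. The arrays read the same probes, so they do not repeat the comparison of the sets. Median signal had no steady order with length. It was 5.51 under 200 nt, 5.13 from 500 to under 750 nt, 4.96 from 1500 to under 2000 nt and 6.20 at 3000 nt or more. The long minus shorter difference was 0.35 among the circRNAs well above background on all 6 arrays, a filter on the signal itself, and 0.022 with 1500 nt as the limit of a long circRNA.

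The long circRNAs were at the same time dim somewhat more often. A signal under 4 was found for 81 (23.8%) of the long, 21.6% of the shorter and 17.0% of all. A signal over 10 was found for 12 (3.52%), 3.6% and 6.03%. The probe was well above background on all 6 arrays for 279 long circRNAs (81.8%), against 86.4% and 88.6%. By array, 304, 336 and 334 of the 341 were well above background on WT 1, WT 2 and WT 3 and 300, 341 and 325 on APP/PS1 1, APP/PS1 2 and APP/PS1 3. The arrays WT 1 and APP/PS1 1 therefore measured the dim members least well. All 341 passed the filter of 3 arrays, and each was well above background on at least 1 array of either genotype.

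**Figure D2:**
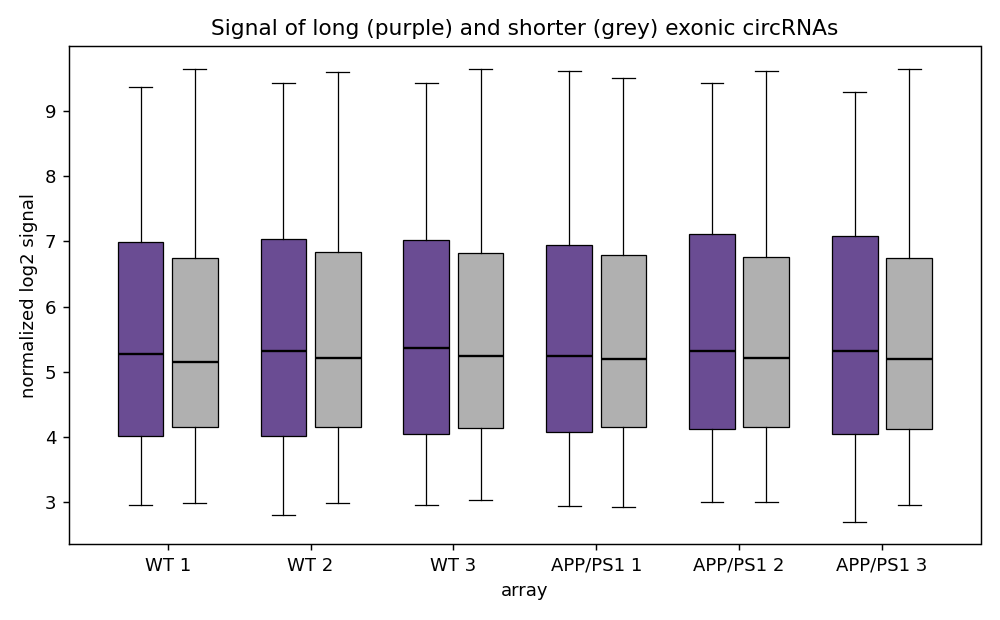
Normalized log2 signal of the 341 long (purple) and 1000 shorter (grey) exonic circRNAs on each array. Boxes show the quartiles, lines the median and whiskers the 5th and 95th percentiles, and the long median is the higher one on each array.

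Span went with signal more than length did. Over the 341 members the Spearman correlation of signal with length was -0.016 and with span -0.16, as descriptions across circRNAs. With the members ordered by span and divided evenly into 3 sets, the median signal was 5.73 for the narrowest, 5.22 for the middle and 4.89 for the widest set. A signal under 4 was found for 18.4%, 18.6% and 34.2% of them. The probes of the widest rings were thus dim most often, and affinity and abundance cannot be told apart for them.

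The brightest member came from Paxip1, which encodes a protein with BRCT domains that acts in the response to DNA damage (mmu_circRNA_38319, 2559 nt, chr5:27748814-27775679). Its signal was 13.98, 14.02 and 14.07 in the WT samples and 14.02, 14.21 and 14.32 in the APP/PS1 samples. The genotypes overlapped, with a difference of 0.16 (SE 0.12, limma adjusted p = 0.53). Ttn gave 11.38, 11.28 and 11.45 in WT and 11.37, 11.47 and 11.49 in APP/PS1 samples, so the longest ring was also among the brightest and its genotypes overlapped. The other 8 of the 10 brightest came from Rtn3, a reticulon of the endoplasmic reticulum, Eps15, an adaptor of clathrin-mediated endocytosis, St5, Erbb4, a neuregulin receptor, Zmym4, Tbck, Setbp1 and Ncoa7. Their mean signals ran from 12.88 for Rtn3 to 10.27 for Ncoa7. Their APP/PS1 minus WT differences lay between -0.26 for Ncoa7 and 0.12 for Eps15. In none of the 10 were the genotypes separated, against 25.1% of all circRNAs, and the set is small.

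Host genes that mark cell types were read among all classes of circRNA in the rows held, since the array does not measure their mRNA. Of the microglial markers 5 had a circRNA there (7 circRNAs), the brightest from Inpp5d, and none of these was a long exonic circRNA. Csf1r, Cx3cr1, P2ry12, Tmem119, Itgam, Aif1, Trem2 and Ptprc were not in the rows held. The summed normalized signal of the 7, on the linear scale, was 444, 515 and 448 in the WT samples and 474, 276 and 406 in the APP/PS1 samples, lowest in APP/PS1 2. The median APP/PS1 minus WT difference (log2) of the 7 was -0.43. The rings of Inpp5d, Ikzf1 and Dock10 were lower in APP/PS1, and those of Mef2a and Plxdc2 higher, by 0.24 and 0.21. With APP/PS1 2 left out, 8 members were called higher and 4 lower in the comparison given below, with 390 and 248 of all 13420. Of 8 neuronal markers 4 had a circRNA, among them long ones from Gria1, Grin3a and Scn2a1, with sums of 546, 486 and 467 in WT and 467, 476 and 484 in APP/PS1 samples, the brightest from Gria1. Of 5 astrocyte markers Slc1a2 and Slc4a4 had one, the latter a long one, with Slc1a2 the brighter and sums of 620, 555 and 492 in WT and 498, 533 and 595 in APP/PS1 samples. Of the markers of the oligodendrocyte lineage Ptprz1 and Vcan had one, both long, with Vcan the brighter and sums of 53.8, 48.3 and 58.9 in WT and 45.2, 53.9 and 43.8 in APP/PS1 samples. The median differences were -0.067, 0.011 and -0.27 for the rings of neuronal, astrocyte and oligodendrocyte lineage markers. Rings from neuronal and astrocyte genes thus gave signal in the CD11b-selected samples. Rbfox3, Snap25, Syt1, Grin2b, Gfap, Slc1a3, Aqp4, Mbp, Mog and Pdgfra were not in the rows held, and the part of other cells in any difference below was not tested.

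The 5 members just above 1000 nt came from Ankib1, Huwe1, Tbc1d19, Ano10 and Herc2, with 1000 to 1006 nt, and the 5 just below from Jak1, Serpini1, Ttll8, Atg4c and Syn2, with 992 to 998 nt. Their mean signals ran from 3.84 to 6.60 above the limit and from 4.96 to 6.63 below it. Their APP/PS1 minus WT differences ran from -0.57 for Huwe1 to 0.21 for Ano10 above it and from -0.40 for Ttll8 to 0.11 for Atg4c below it. The ranges on either side of the limit overlapped.

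The comparison of the genotypes asked which circRNAs of microglia differ in the mouse model. A circRNA was called when its fold change was 1.5 or more and its unadjusted p under 0.05, after the cut-offs of the study. Among the long exonic circRNAs 11 were called higher in APP/PS1 (3.23%, against 3.15% of all 13420) and 3 lower (0.88%, against 2.26% of all), 14 together (4.11%, against 5.41% of all). Among the 1000 shorter ones 23 were called higher and 23 lower. After Benjamini-Hochberg adjustment over all probes limma called 0 of the 341 at 0.05, with 59 at an unadjusted p under 0.05 (17.3%, against 17.8% of all), 27 higher (against 8.87% of all) and 32 lower (against 8.9% of all), and a lowest adjusted p of 0.12. The methods' t-test, eBayes with a trend and robust estimation, and the fit with the replicate number as a block also gave 0 after adjustment. The share of called members was thus near the background. The split of 11 against 3 is read beside the scaling, since 75th percentile scaling gave 8 higher and 9 lower, with 331 and 422 of all 13420.

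The groups did not overlap in 73 members (21.4%, against 25.1% of all), with APP/PS1 above WT in 33 (9.68%, against 12.3%) and below in 40 (11.7%, against 12.8%). The median difference of the members was 0.0034 (log2), against -0.031 for the shorter ones and -0.011 over all. Its quartiles were -0.17 and 0.16, and 171 of the 341 were higher in APP/PS1. Lower calls among the members numbered 8 without WT 1, 11 without WT 2, 11 without APP/PS1 1 and 8 without APP/PS1 3. Lower calls over all 13420 numbered 396 without WT 2, 519 without APP/PS1 1 and 341 without APP/PS1 3, against 303 with every array. Without WT 1 the members rose from 3 to 8 while the count over all fell below 303. Higher calls among the members stayed between 8 and 13 when an array was left out, with 362 to 541 over all 13420. By length, 7 higher and 1 lower call fell among the 180 members under 1500 nt (4.44% together, against 5.41% of all), 4 and 1 among the 79 of 1500 to under 2000 nt (6.33%), and 0 and 1 among the 82 of 2000 nt or more (1.22%), where 13 had an unadjusted p under 0.05 by limma (15.9%, against 17.8% of all). These sets are small, and nothing is read from the order of their shares.

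**Figure D3:**
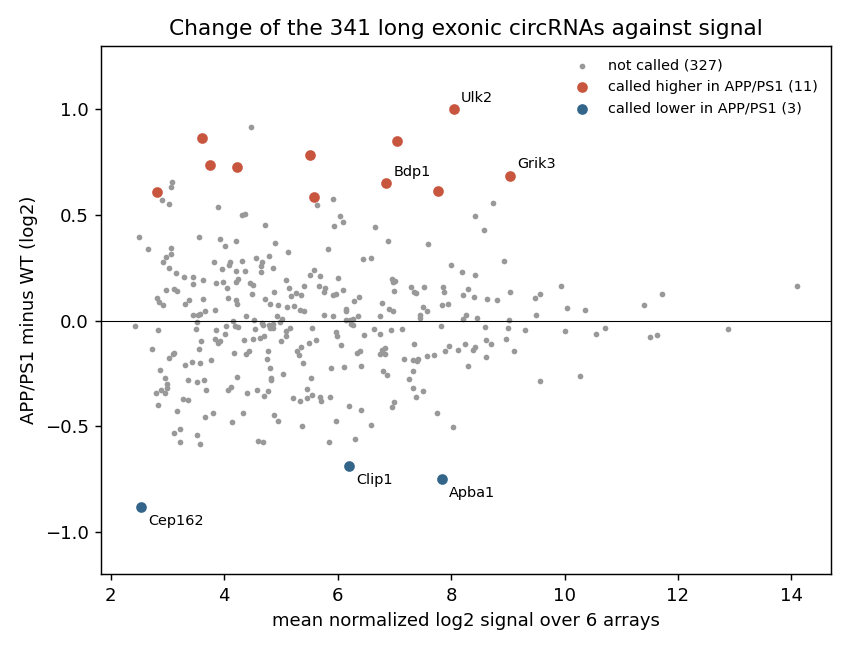
APP/PS1 minus WT difference (log2) against the mean normalized log2 signal over the 6 arrays for the 341 long exonic circRNAs. The 11 called higher are red, the 3 called lower blue and the 327 others grey, and the brightest members lie near 0.

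The largest rise was that of the circRNA from Ulk2, a kinase that starts autophagy (mmu_circRNA_23449, 1624 nt, chr11:61781592-61803787, minus strand). Its signal was 7.52, 7.63 and 7.50 in the WT samples and 9.30, 8.36 and 7.99 in the APP/PS1 samples. The APP/PS1 samples all lay above the WT samples, and APP/PS1 1 stood highest. The difference was 1.00 (SE 0.31, a fold of 2.0, limma adjusted p = 0.17), and it was smallest at 0.62 without APP/PS1 1. The call was lost under the methods' t-test and kept under the other 15 of 16 alternatives run for it. The ring spanned 27.8% of its host gene and began after 64.6% of it, away from the start region printed above.

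The smallest standard error among the called members went with the ring from Bdp1, a subunit of the factor that recruits RNA polymerase III (mmu_circRNA_26835, 1447 nt, chr13:100065877-100092327). Its signal was 6.63, 6.46 and 6.50 in WT and 7.17, 7.28 and 7.09 in APP/PS1 samples. The 3 APP/PS1 values lay close together above the WT values, with a difference of 0.65 (SE 0.11, limma adjusted p = 0.12). The ring from E230016M11Rik gave 3.89, 3.75 and 3.93 in WT and 4.46, 4.66 and 4.63 in APP/PS1 samples, a difference of 0.73 (SE 0.12, limma adjusted p = 0.12). Both lost the call under the authors' values, the median signal and normexp, where the differences were smaller, down to 0.44 for Bdp1 and 0.14 for E230016M11Rik.

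Grik3 encodes a subunit of kainate receptors for glutamate, and its long ring (mmu_circRNA_37589, 1034 nt) was the brightest of those called. Its signal was 8.54, 8.86 and 8.69 in WT and 9.86, 9.21 and 9.07 in APP/PS1 samples. The groups did not overlap, and the difference was 0.69 (SE 0.22, limma adjusted p = 0.18), with the call lost under the methods' t-test and without APP/PS1 1, its highest sample, where the difference was 0.45. Rpgr, which encodes a regulator of transport at the base of the cilium, gave 6.35, 6.78 and 6.75 in WT and 8.12, 7.31 and 7.00 in APP/PS1 samples. Its difference was 0.85 (SE 0.28, limma adjusted p = 0.19), and the call was lost under the methods' t-test, without WT 1, at 0.71, and without APP/PS1 1, at 0.53. In Ulk2, Grik3 and Rpgr alike APP/PS1 1 was the highest sample.

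Vezt encodes a membrane protein of adherens junctions, and its ring gave 7.05, 7.73 and 7.61 in WT and 7.94, 8.10 and 8.18 in APP/PS1 samples, with a difference of 0.61 (SE 0.19, limma adjusted p = 0.17). Vav3, an exchange factor for small GTPases that acts in immune cells, gave 2.89, 3.50 and 3.18 in WT and 3.74, 4.86 and 3.55 in APP/PS1 samples, a difference of 0.86 (SE 0.35, limma adjusted p = 0.26). Vav3 was dim and rested most on APP/PS1 2. Rnf14, a ubiquitin ligase, gave 4.40, 5.61 and 5.37 in WT and 5.72, 6.03 and 5.98 in APP/PS1 samples, a difference of 0.78 (SE 0.30, limma adjusted p = 0.24). Dnah7a, a dynein heavy chain of the axoneme, gave 3.76, 3.11 and 3.26 in WT and 3.69, 4.58 and 4.08 in APP/PS1 samples, and here the groups overlapped. Its difference was 0.74 (SE 0.26, limma adjusted p = 0.21). Plxna2, a semaphorin receptor, gave the dimmest of these rings, with 2.65, 2.74 and 2.14 in WT and 3.57, 2.78 and 3.01 in APP/PS1 samples and a difference of 0.61 (SE 0.24, limma adjusted p = 0.26). The calls of Vezt, Vav3, Rnf14, Dnah7a and Plxna2 were lost under 2 of 16, 8 of 15, 8 of 16, 9 of 16 and 11 of 15 alternatives. The methods' t-test was among these for Vav3, Rnf14, Dnah7a and Plxna2, and the replicate number as a block for Dnah7a. Vezt was lost without WT 1, at 0.41, and without APP/PS1 3, and Rnf14 rested in part on WT 1, with 0.42 without it. Vav3 was 0.46 without APP/PS1 2 and Plxna2 0.38 without APP/PS1 1. Under normexp the differences were 0.19 for Vav3, 0.33 for Rnf14, 0.19 for Dnah7a and 0.031 for Plxna2.

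Of the 3 lower calls, that of Clip1, which encodes a protein that binds the growing ends of microtubules, was the longest ring (mmu_circRNA_39352, 3561 nt, chr5:123603599-123656086, minus strand). Its signal was 6.72, 6.52 and 6.41 in WT and 5.68, 5.81 and 6.09 in APP/PS1 samples. All APP/PS1 samples lay below all WT samples. The difference was -0.69 (SE 0.15, limma adjusted p = 0.12), and the call was lost under normexp, at -0.47, of 16 alternatives. The ring spanned 49.1% of its host gene.

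Apba1 encodes an adaptor that binds the cytoplasmic tail of APP, and its ring (mmu_circRNA_32328, chr19:23892735-23894020) had no intron between its ends, with a length and a span of 1286. Its signal was 8.21, 8.09 and 8.33 in WT and 8.01, 6.97 and 7.40 in APP/PS1 samples. APP/PS1 1 lay just below the WT samples and the others well below them. The difference was -0.75 (SE 0.25, limma adjusted p = 0.19), and the call was lost under the methods' t-test and without WT 3, without APP/PS1 2 and without APP/PS1 3, where the difference was -0.69, -0.51 and -0.72. Cep162, a protein of the centriole, gave 3.20, 2.78 and 2.96 in WT and 2.38, 2.09 and 1.82 in APP/PS1 samples. Its difference was -0.88 (SE 0.18, limma adjusted p = 0.12), but its probe was well above background on 2 WT arrays and 1 APP/PS1 array. Under normexp, the median signal or the authors' values it was not called, with a difference as small as -0.054.

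**Figure D4:**
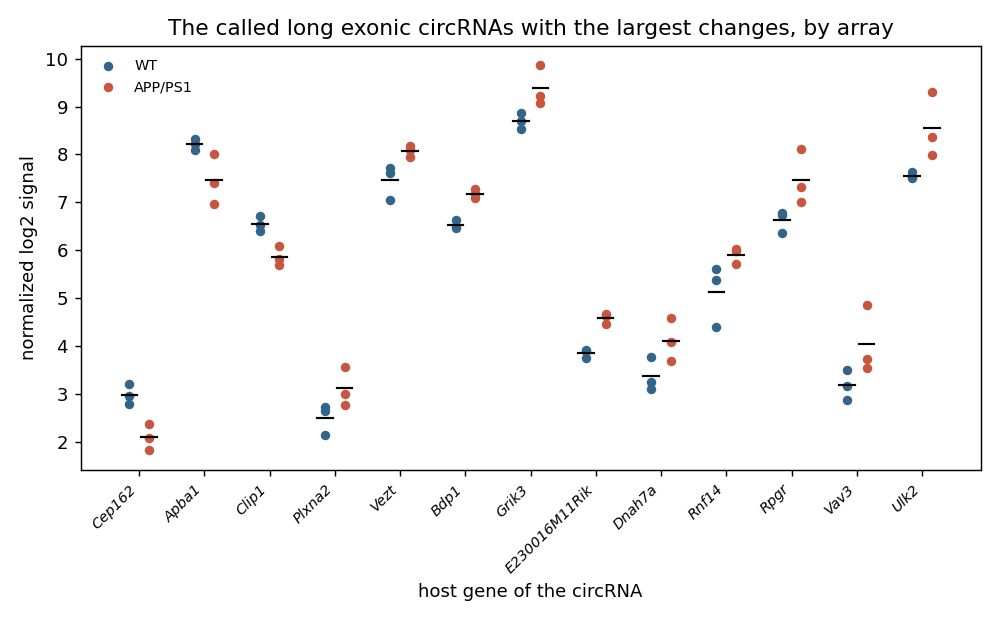
Normalized log2 signal of the 13 called long exonic circRNAs with the 10 largest rises and 3 falls, by host gene, in the WT (blue) and APP/PS1 (red) samples. Points are arrays and lines the mean of 3, and the groups overlap only for Dnah7a.

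The 10 longest rings were, after Ttn, those of Zfp462 (6424 nt), Jmjd1c (5990 nt), Tcf20 (5866 nt), Chd2 (4844 nt), Ankrd12 (4757 nt), the pair from Akap9 (4437 and 4122 nt), Pcf11 (4254 nt) and Dnah9 (4031 nt). None of the 10 was called, against 5.41% of all, and nothing is read from so small a count. Chd2, a chromatin remodeller, gave 6.46, 6.50 and 6.25 in WT and 6.17, 5.85 and 5.98 in APP/PS1 samples, a difference of -0.40 (SE 0.13, limma adjusted p = 0.19). Dnah9, a dynein heavy chain, gave 3.87, 3.86 and 3.49 in WT and 4.04, 4.23 and 4.10 in APP/PS1 samples, a difference of 0.39 (SE 0.14, limma adjusted p = 0.22). Under normexp they were -0.18 for Chd2 and 0.096 for Dnah9. In Chd2, Dnah9, Zfp462 and the longer ring of Akap9 the groups did not overlap. Jmjd1c, a jumonji protein, gave 3.35, 6.26 and 6.00 in WT and 5.32, 5.36 and 5.32 in APP/PS1 samples, so that its difference of 0.13 (SE 0.70) rested on WT 1 and was -0.80 without it. Among the 23 members of 3000 nt or more the groups did not overlap in 10 (43.5%, against 25.1% of all), with APP/PS1 above in 3 (13.0%, against 12.3%) and below in 7 (30.4%, against 12.8%). Among the 59 members of 2000 to under 3000 nt the groups did not overlap in 16.9%, with 8.47% above and 8.47% below. Over the 82 members of 2000 nt or more it was 24.4%, with 9.76% above and 14.6% below. The share below was above the background in the small set of 23, which is given as a description.

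Rings without an intron between their ends numbered 12 (3.52%) among the long and 47 (4.7%) among the shorter ones. They came from Vcan, Zhx3, Zhx1, Setbp1, AF529169, Emilin2, Zfp438, R3hcc1l, 5930412G12Rik, Apba1, Hemgn and Grin3a, with 1048 nt for Grin3a and 3448 nt for Setbp1 at the ends of the range. Their median signal was 6.03, against 5.33 over all members, and 11 of the 12 were well above background on all 6 arrays. Apba1 was the one called (8.33%, against 5.41% of all) and the one without overlap of the groups (8.33%, against 25.1% of all). The median difference of the 12 was 0.026. Grin3a, a subunit of NMDA receptors, varied most, with 5.40, 6.80 and 6.47 in WT and 7.22, 6.03 and 5.43 in APP/PS1 samples and a difference of 0.0034 (SE 0.51).

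The members were also read by what their host genes do, in 9 lists that held 208 of the 341. The median difference over all members was 0.0034 and over all 13420 circRNAs -0.011, and the lists are described beside these. Chromatin regulators (21 members) had a median of -0.0052, with Mbd5, a methyl-CpG-binding domain protein, at 0.45 (SE 0.18) and Kdm3a, a histone demethylase, at -0.50 (SE 0.17) at its ends. Transcription factors and zinc finger proteins (22 members) had a median of -0.12, with 7 of the 22 higher in APP/PS1, and ran from Sp1 at -0.57 (SE 0.18) to Zbtb11 at 0.66 (SE 0.38). Genome maintenance and chromosome segregation (22 members) had a median of 0.079 and ran from Kif15, a mitotic kinesin, at -0.58 (SE 0.11) to Hltf, a helicase-like factor of DNA repair, at 0.91 (SE 0.55). RNA processing and decay (19 members) had a median of 0.054 and ran from Larp4b at -0.45 (SE 0.17) to Caprin1 at 0.38 (SE 0.15).

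Limma called 0 members in these 4 lists at the thresholds, against 5.41% of all, with 3, 3, 4 and 3 at an unadjusted p under 0.05 in the order given (14.3%, 13.6%, 18.2% and 15.8%, against 17.8% of all). Of these 1, 0, 1 and 1 were higher and 2, 3, 3 and 2 lower. In genome maintenance APP/PS1 lay wholly below WT in 7 of 22 members (31.8%, against 12.8% of all) and wholly above in 1 (4.55%, against 12.3%), while the median was above 0. In the transcription factors it lay below in 5 (22.7%) and above in 0. The lists are small, and the 0 is a count and no result about these genes. Kif15 missed the fold threshold narrowly, with a fold of 1.499, and gave 3.89, 3.84 and 3.90 in WT and 3.15, 3.33 and 3.39 in APP/PS1 samples without overlap. Sp1 gave 5.37, 4.84 and 4.71 in WT and 4.45, 4.28 and 4.47 in APP/PS1 samples, and its difference was -0.37 without WT 1. Hltf gave 2.59, 4.70 and 4.77 in WT and 4.68, 5.04 and 5.09 in APP/PS1 samples, so its difference was made by WT 1 and was 0.20 without it. Zbtb11, at the upper end of its list, was 1.09 without WT 1, where it was called, and 0.38 without WT 3. The differences at the ends of these lists, other than that of Kdm3a, were smaller by over 1.5 times under normexp, with -0.11 for Kif15, -0.17 for Sp1, 0.18 for Hltf, 0.049 for Zbtb11, 0.13 for Mbd5, -0.087 for Larp4b and 0.095 for Caprin1.

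The centrosome, cilium and axoneme list (24 members) held 3 of the 14 calls (12.5% of its members, against 5.41% of all), with Rpgr and Dnah7a higher and Cep162 lower, and its median was 0.017. It had 7 members with an unadjusted p under 0.05 (29.2%, against 17.8% of all), 4 higher and 3 lower, and the lowest median signal of the lists, 4.65. Synapse and neuronal excitability (34 members) held Grik3 higher and Apba1 lower (5.88%), with a median of 0.012, 9 members with an unadjusted p under 0.05 (26.5%), 4 higher and 5 lower, and the highest median signal, 6.48. Membrane traffic and autophagy (32 members) held Ulk2 and had a median of 0.011, with Trappc8 the lowest at -0.38 (SE 0.18), and Ulk2 was its single member with an unadjusted p under 0.05 (3.13%). Ubiquitin ligases and deubiquitinases (22 members) held Rnf14 (4.55%) and had a median of -0.078, with Huwe1 the lowest at -0.57 (SE 0.15). In this list 3 members had an unadjusted p under 0.05 (13.6%), 1 higher and 2 lower. Immune and kinase signalling (15 members) held Vav3 (6.67%, against 5.41% of all) and had a median of -0.044, with Tnfrsf21, a death receptor, the lowest at -0.44 (SE 0.12). In it 3 members had an unadjusted p under 0.05 (20%), 2 higher and 1 lower. APP/PS1 lay wholly above WT in 3 members (20%, against 12.3% of all) and wholly below in 1 (6.67%, against 12.8%). Under normexp Huwe1 was -0.19 and Trappc8 -0.052. Calls in either direction stood beside each other in the lists with more than 1.

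**Figure D5:**
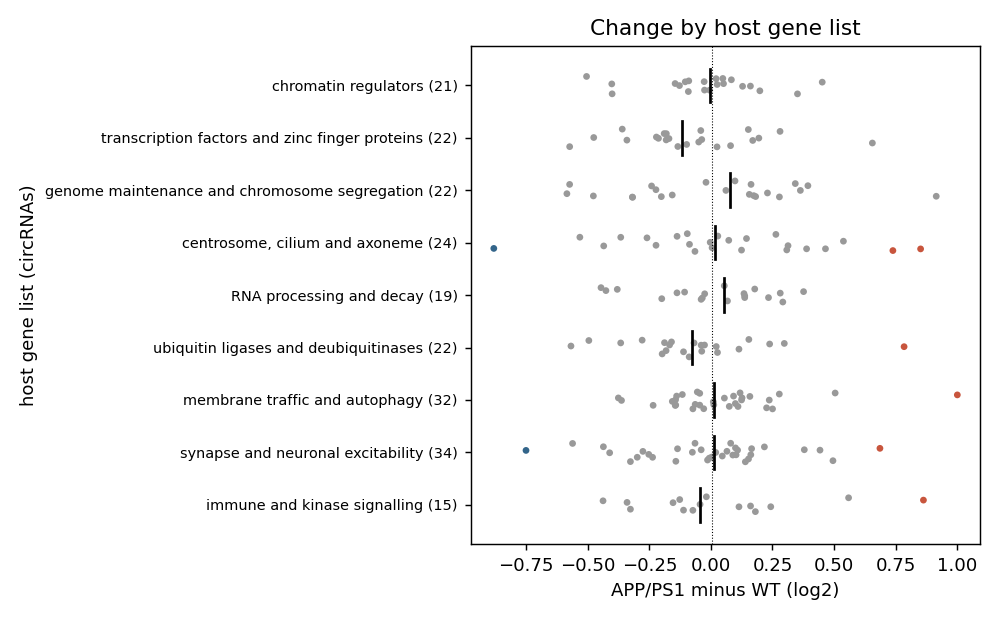
APP/PS1 minus WT difference (log2) of the long exonic circRNAs in each of 9 host gene lists, with the number of members in parentheses. Points are circRNAs (red called higher, blue called lower, grey not called, spread vertically for sight), black lines the list medians and the dotted line the median of all 341, and the list medians lie between -0.12 and 0.079.

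A host gene can give more than 1 long ring. Such pairs were found for 15 host genes, and in 11 of them the rings overlapped on the chromosome. The rings of R3hcc1l and of Wdr44 shared their lower coordinate and those of Cdk13 their higher one. The differences had the same sign in 7 pairs and opposite signs in 8. None of the 30 circRNAs was called, against 5.41% of all, and nothing is read from so small a count.

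In Wdr44 the ring of 1671 nt gave 8.31, 8.58 and 8.22 in WT and 8.53, 8.98 and 8.89 in APP/PS1 samples, a difference of 0.43 (SE 0.16), and that of 1094 nt a difference of -0.15 (SE 0.25). The difference between the 2 changes was -0.58 for the shorter ring minus the longer one, and it lay between -0.91 without WT 2 and -0.30 without WT 3, with -0.37 without APP/PS1 3. For Wdr44, R3hcc1l and Cdk13, the pairs that share an end, the exact two-sided permutation p of this difference over the samples was 0.30, 0.40 and 0.40, where 0.1 is the smallest that 3 against 3 samples can give. In Zbtb11, a zinc finger factor, the rings of 1990 and 1245 nt had differences of -0.34 (SE 0.14) and 0.66 (SE 0.38). This was the widest gap of the 15 pairs and is given as a description, since it was picked for its width. In Rif1, a factor of replication timing, both rings lay lower in every APP/PS1 than in every WT sample, by differences of -0.22 (SE 0.13) and -0.24 (SE 0.12). In Akap9, a scaffold of the centrosome, the ring of 4437 nt had a difference of -0.37 (SE 0.12) and that of 4122 nt one of 0.14 (SE 0.28). The ring of 4122 nt was dim at 2.97, and the gap of 0.51 was 0.84 without WT 1 and 0.23 without WT 3.
In Aff4, a scaffold of transcription elongation, the rings of 1208 and 1039 nt had differences of -0.48 (SE 0.11) and -0.18 (SE 0.14), in Lrig2 the rings of 1074 and 1286 nt -0.48 (SE 0.18) and -0.27 (SE 0.19), and in Cntln the rings of 1461 and 1075 nt -0.43 (SE 0.16) and -0.096 (SE 0.23). In each of these 3 genes the groups did not overlap for the first ring named and did for the second, where 25.1% of all circRNAs had no overlap. The gap between the rings was 0.29 in Aff4, and 0.21 without WT 2. It was 0.21 in Lrig2, and 0.013 without WT 3, and 0.34 in Cntln, and 0.22 without WT 2. These contrasts are given as a description, and no difference between the rings is read from them. The pairs of Hace1, Ofd1, Ralgapa1, Tbc1d19, Ubr3, Vps13a, R3hcc1l and Cdk13 had differences between -0.26 and 0.34.

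Long and shorter exonic rings of the same host gene were found in 33 genes, as 38 pairs with 34 long members. They overlapped on the chromosome in 28 pairs, the shorter ring lay within the ends of the longer one in 15, and 5 pairs shared 1 end. The differences had the same sign in 17 of the 38. The long rings of Grik3 and Bdp1, 2 of the 34 long members, and 1 shorter ring, that of Anks1b, were called, where 5.41% of all were. In 0 pairs were both called.

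The 8 pairs with the widest gaps, the difference of the long ring minus that of the shorter one, are described next with Bdp1 and Grik3, the pairs with a called long ring. They were picked by the values compared, so their gaps are given as a description. The exact two-sided permutation test was run on all 38 pairs and reached its smallest p of 0.1 in 6, which cannot pass 0.05, and nothing is read from it for pairs picked by width.

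In Cttnbp2, which encodes a protein of dendritic spines, the long ring of 2127 nt gave 6.47, 6.36 and 6.46 in WT and 6.92, 6.88 and 6.82 in APP/PS1 samples. The long ring was higher in all APP/PS1 than in all WT samples, with a difference of 0.44 (SE 0.10). The ring of 639 nt within its ends had a difference of -0.37 (SE 0.15), a gap of 0.82. Banp, a nuclear matrix protein, gave the opposite order, with -0.26 (SE 0.17) for the long ring of 1374 nt and 0.35 (SE 0.11) for the ring of 431 nt that shares an end with it, a gap of -0.61. In Cttnbp2 and Banp no single array moved the gap by over 1.5 times, with 0.73 to 0.94 and -0.73 to -0.47 when each was left out. Each pair set a dimmer ring beside a brighter one. The long and the shorter ring had signals of 6.65 and 4.11 in Cttnbp2 and of 4.24 and 6.96 in Banp. How these gaps depend on the background correction was not tested.

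In the other 6 of the 8 widest pairs the gap depended on 1 or 2 arrays. That of Usp34, a deubiquitinase, was the widest at -1.10, with -0.28 (SE 0.19) for the long ring and 0.82 (SE 0.48) for the shorter one. The shorter ring gave 3.49, 5.32 and 5.21 in WT and 5.16, 5.44 and 5.89 in APP/PS1 samples, so that WT 1 stood far below the others, and the gap was -0.42 without it. In Anks1b the long ring of 1635 nt, which spans 517759 bp, was dim at 2.74 and had a difference of -0.14 (SE 0.44), whereas the shorter ring of 273 nt was called higher at 0.94 (SE 0.19). Its gap was -1.08, and -0.62 without WT 1.

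In Hltf the gap was 0.78, and with WT 1 left out, the array that made the difference of its long ring, it was 0.056, while it was 1.17 without WT 3. In Ift74 it was 0.80, and 0.49 without WT 1. In 4932438A13Rik it was 0.66, and 0.20 without APP/PS1 1. In Phldb2 it was -0.58, and -0.33 without WT 3 and -0.23 without APP/PS1 3. In none of the 8 pairs did the gap turn in sign when an array was left out.

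In Bdp1 both differences were positive, with 0.65 (SE 0.11) for the long ring and 0.51 (SE 0.13) for the shorter one of 808 nt. The gap was 0.14 and turned to -0.0057 without APP/PS1 2, while it was 0.065 without WT 2 and 0.27 without APP/PS1 3. In Grik3 the shorter ring of 561 nt had a difference of 0.12 (SE 0.22), a gap of 0.56 to the called long ring, and 0.23 without APP/PS1 1.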

How the data were processed

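CircRNAs were measured on 1-colour Arraystar arrays, 1 per sample, in 3 WT and 3 APP/PS1 samples grouped by their labels. The intensity files that the authors deposited were written by Agilent Feature Extraction 11.0.1.1 and are not normalized between arrays. The authors also deposited a table of log2 values, quantile normalized with limma, whose background correction and centring are not stated, and it served as an alternative. The list of circRNAs was used for names, types, lengths and positions only. It names no genome build, and the header of the array design names mm9, whose genes were not used here. All 324 long circRNAs with a matched RefSeq transcript lay inside their host gene on GRCm38.p6, so positions are given as such.

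In R 4.3.3 with limma 3.58.1, log2 of the background-subtracted processed signal was taken, outlier spots were removed, a probe was kept if well above background on 3 or more of 6 arrays (13420 of 14236), and arrays were quantile normalized. Genotypes were compared over all probes with lmFit and eBayes, with Benjamini-Hochberg adjustment over all of them, and only long and shorter exonic circRNAs are given. The steps were tested on simulated data. The exact permutation test was two-sided over the 6 samples. No array had a saturated circRNA spot, and 87.0% to 96.9% of circRNA probes were well above background, which limits what dim members can show.

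The members and lists were chosen with earlier results of these data known. CircRNAs were named by rule: the 10 brightest, the 10 longest, up to 10 largest rises and falls among those called, those of host genes with 2 or more members, the 5 nearest either side of 1000 nt, those without an intron, the largest and smallest change in each gene list, and the members with the largest gaps to a shorter ring of their gene. Stag2 and Rims2 were left out, and some cell type markers are not reported here. The alternatives were other scalings, background corrections, filters and tests, the authors' values, a limit of 1500 nt, the replicate number as a block, and leaving out each array. Leaving out each array for the gap between rings of a gene, and the other tests for single named circRNAs, were chosen after seeing the data. Promoters were matched by RefSeq symbol, with the most upstream start for each gene.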

Additional observations from a re-analysis of the deposited data

How the results depend on the processing

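The 11 higher calls among the 341 members became 5 with the median signal without background subtraction, 5 with normexp and an offset of 50, 6 with the authors' values, 4 with the methods' t-test and 4 of 161 with a limit of 1500 nt. Over all 13420 probes the 423 higher calls became 197, 128, 214 and 282 in the first 4 of these. The 3 lower calls became 9 with 75th percentile scaling, 1 with normexp and 5 without a filter. Over all probes the 303 lower calls became 422, 59 and, of 14236, 350. Leaving out each array gave 8 to 13 higher and 3 to 11 lower calls among the members. Over all 13420 probes the higher calls then ran from 362 to 541, and the lower calls reached 519 without APP/PS1 1. The count after adjustment was 0 of the members under every alternative, among them the methods' t-test, which gave 4 of all 13420 probes, and normexp, which gave 2. The median difference was -0.041 with 75th percentile scaling, where the median of all probes was -0.052, and lay between -0.0047 and 0.020 otherwise with the limit of 1000 nt, so it lay near 0 with no fixed sign. The long minus shorter difference in median signal was 0.061 with the median signal, 0.045 with normexp, 0.35 among probes well above background on all 6 arrays, 0.072 with the authors' values and 0.022 with a limit of 1500 nt, and 0.10 to 0.12 when an array was left out. It was above 0 in each. The replicate number did not pair the arrays (correlations of deviations -0.25, -0.083 and -0.22). As a block it gave 10 higher and 3 lower calls, with that of Dnah7a lost, and 444 and 305 of all 13420. Over the named circRNAs, the called ones kept the call in 147 runs and lost it in 58, with 0 turned in sign, and those not called crossed the threshold in the same direction in 25 runs. Jmjd1c turned from 0.13 to -0.80 without WT replicate 1 and was 0.66 without WT replicate 2. For these changes the cause was not tested. Signal over background limits the dim members, as 279 of the 341 were well above background on all 6 arrays.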
